A study of Caenorhabditis elegans with 16 samples.

Results

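The bath and math genes of Caenorhabditis elegans encode proteins with a MATH domain, a fold that binds other proteins, and the bath genes add a BTB domain. In the best studied cases, such as MEL-26 of the worm and SPOP of mammals, the BTB domain binds the cullin CUL-3 and the MATH domain holds the protein that this ubiquitin ligase will mark for destruction. The worm genome holds far more of these genes than mammalian genomes do, most of them in arrays on chromosome II and most without a described function. The members described here are the transcripts of the normalized count table whose gene name is bath or math followed by a number and whose mean over the 16 libraries was at least 1. Of 103 such transcripts among the 26080 of the table, 100 met this minimum. They belong to 84 genes, with 48 transcripts of 43 bath genes and 52 transcripts of 41 math genes, and math-16, math-31 and math-37 fell under the minimum.

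RNA was taken from whole worms at the L4 larval stage and sequenced as poly(A) libraries. ADAR mutants lack functional adenosine deaminases, the enzymes that turn adenosine to inosine in double-stranded RNA, and came as 2 strains that each carry a deletion allele of both genes. BB4 holds adr-1(gv6) on chromosome I together with adr-2(gv42) on chromosome III, and BB21 holds adr-1(tm668) and adr-2(ok735) on the same chromosomes. Each strain was given a heat shock of 34 °C for 75 min, 20 min at room temperature and 3 h of recovery at 20 °C, or was kept at 20 °C, called standard conditions. There were 5 heat-shocked ADAR mutant libraries (3 of BB4 and 2 of BB21), 5 ADAR mutant libraries under standard conditions (3 and 2), 3 heat-shocked libraries of the wild type N2 and 3 of N2 under standard conditions. The study's methods call the replicates biological, and the labels do not say whether they were separate cultures. Whole worms were measured, so fewer cells of a type and less RNA per cell cannot be told apart.

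Depth was uneven. The 6 libraries of BB4 replicate 3, BB21 replicate 2 and N2 replicate 3 held 30011732 to 35693369 reads and are called deep. The 10 shallow libraries held 4699505 to 9624995. By the endings of their titles, the shallow libraries form a first set (BB4 replicate 2, BB21 replicate 1 and N2 replicate 1) and a second set (BB4 replicate 1 and N2 replicate 2). A list of 7 heat-shock genes had a summed normalized count of 6884 to 37039 in heat-shocked mutants, against 4399 to 7786 in mutants under standard conditions, and of 16747 to 56384 in heat-shocked N2, against 5139.7 to 11212 in N2 under standard conditions. The transcripts of adr-1 and adr-2 summed to 1210.4 to 2331 in mutants and to 5338 to 8130 in N2 under standard conditions. All marker lists of the main tissues were detected. Sperm markers (17 transcripts) varied widely within groups. They summed to 5897.5 to 32868 in heat-shocked mutants, against 9603 to 33913 in mutants under standard conditions. In N2 they summed to 8887 to 58698 after heat shock, against 11034 to 31739 under standard conditions. Sums of neuron and of body-muscle markers overlapped between heat shock and standard conditions in both strain groups. Markers of oocytes and embryos (18 transcripts of 16 genes) were lower after heat shock, with sums of 14810 to 27679 in heat-shocked mutants, against 47270 to 60909 under standard conditions, and of 20784 to 34443 in heat-shocked N2, against 60933 to 66636 under standard conditions. The 13 epidermal marker transcripts summed to 16341 to 26185 in heat-shocked mutants, against 7133 to 13359 under standard conditions. In N2 they summed to 10899 to 18209 after heat shock, against 7486 to 10738 under standard conditions. Intestinal markers (16 transcripts) summed to 29530.0 to 50084 in heat-shocked mutants, against 35390.0 to 55807 under standard conditions, and to 26516 to 37749 in heat-shocked N2, against 41445 to 57484. Germ-line markers (14 transcripts) summed to 18013 to 23456 in heat-shocked mutants, against 21305 to 23347, and to 17884 to 23196 in heat-shocked N2, against 24298 to 28473. With the replicate pair as a block, 1 of the 16 intestinal and 2 of the 14 germ-line transcripts were lower in mutants, against 9.75% of all transcripts. In N2, 9 and 4 were lower, against 9.91%. All 18 oocyte and embryo transcripts were lower in mutants and 17 in N2. Of the 13 epidermal transcripts, 9 were higher in mutants, against 13.3% of all transcripts, and 4 in N2, against 9.57%. The part of these shifts in the results on bath and math genes was not tested.

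Most members were expressed at low levels. The median of the members' means was 66.3 normalized counts (reads divided by a size factor for the library), against 163.8 over the 24401 transcripts with a mean of at least 1. It was 131 for bath and 40.04 for math transcripts, and 33 of the 100 members had a mean under 20. By the annotation WBcel235, 81 members (69 genes) lie on chromosome II and 18 (14 genes) on other chromosomes, while math-36 was not matched. The members on other chromosomes had a median of 368 and those on chromosome II one of 60.7. The annotation calls 80 members protein coding and 19 members (16 genes) pseudogenes, and the median level of the pseudogenes was 63.2, against 73.8 for the protein-coding members.

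**Figure D1:**
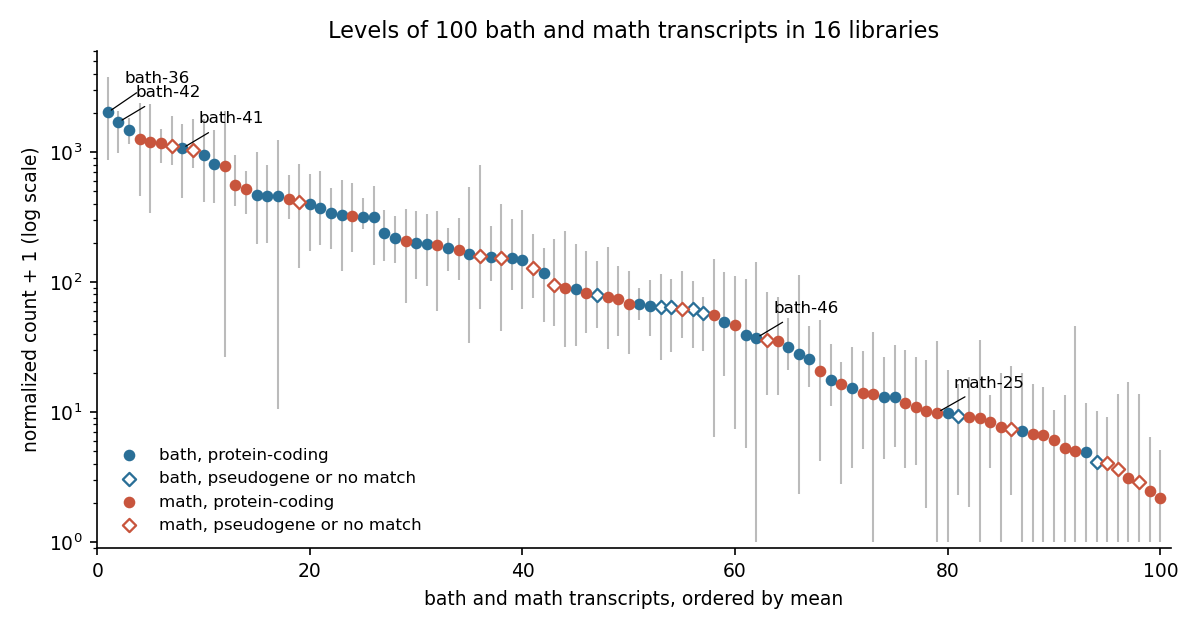
Mean normalized count plus 1 of each of the 100 bath and math transcripts over 16 libraries (log scale), in order of the mean, with grey lines from the lowest to the highest library; filled circles are annotated as protein coding and open diamonds as pseudogenes or not matched. The means run from 1.17 to 2012, and 67 members have a mean of at least 20.

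Levels of different genes were compared per kb of annotated transcript, which was known for 82 members. The highest was bath-36 with 1264 normalized counts per kb, followed by bath-42 (994.5), the transcript T16H12.5b of bath-43 (933), bath-41 (713), bath-40 (639) and the transcript C07D10.2b of bath-44 (467). These 6 transcripts held 32.4% of the summed counts of all members. The annotation names bath-43 spop-1, after its likeness to the mammalian adaptor SPOP. Of the 10 members with the highest level per kb, 5 lie off chromosome II. The order at the top was loose, since bath-36 ranged from 540.3 to 2376 per kb over the 16 libraries, bath-42 from 572 to 1204 and T16H12.5b from 719 to 1150, so that these neighbours overlap. Below them bath-41 ranged from 293 to 1095, bath-40 from 277 to 1195 and C07D10.2b from 234 to 847. At the lower end, 19 of the 82 members had under 10 counts per kb.

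Among the most abundant members the values of bath-36 separated by set of libraries, and those of bath-42 did not. bath-36 had 2305, 2714 and 1108 counts in heat-shocked BB4 and 2109 and 909 in heat-shocked BB21, against 2494, 2301 and 1105 in BB4 and 2173 and 860 in BB21 under standard conditions. N2 had 3783, 2233 and 1112 counts after heat shock, against 2708, 2962 and 1316 under standard conditions. The low value of each group is its deep library, so that the 6 deep libraries hold the 6 lowest values of bath-36 while heat shock and strain groups overlap. bath-42 was steadier, at 1707 ± 344 counts in heat-shocked mutants (SD, n = 5), 1625 ± 181 in mutants under standard conditions (SD, n = 5), 1586 ± 533 in heat-shocked N2 (SD, n = 3) and 1882 ± 144 in N2 under standard conditions (SD, n = 3). Its log2 fold change after heat shock was 0.05 in mutants (standard error 0.21) and -0.31 in N2 (standard error 0.28), and neither passed the test.

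math-33, which joins a MATH domain to a deubiquitinase of the USP7 kind and is known for keeping the transcription factor DAF-16 from degradation, showed the widest gap between sets of libraries. Its transcript H19N07.2a had 66.4, 132 and 1850.3 counts in heat-shocked BB4 and 321 and 1967 in heat-shocked BB21, against 149, 129.6 and 1561 in BB4 and 187 and 1867 in BB21 under standard conditions. In N2 it had 25.4, 127 and 1726 counts after heat shock, against 146, 147 and 2063 under standard conditions. All 6 deep libraries thus lie between 1561 and 2063 and all 10 shallow ones between 25.4 and 321, whatever the strain or treatment. As a share of the transcript H19N07.2b of the same gene, H19N07.2a was at 85.2% to 87.3% in the deep libraries and at 5.52% to 34.8% in the shallow ones. bath-44 showed the same split, with C07D10.2a at 80.7% to 83.6% of C07D10.2b in the deep libraries and at 2.34% to 34.9% in the shallow ones. Reads that fit several transcripts of a gene were counted by multiple alignment, so the transcripts of a gene are not independent. In 8 of 16 comparisons of a lesser transcript with the most abundant one of its gene, over 14 genes with several transcripts, the deep and the shallow libraries did not overlap. The share over all genes with several transcripts was not computed, so this split is not shown to be particular to the members.

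**Figure D2:**
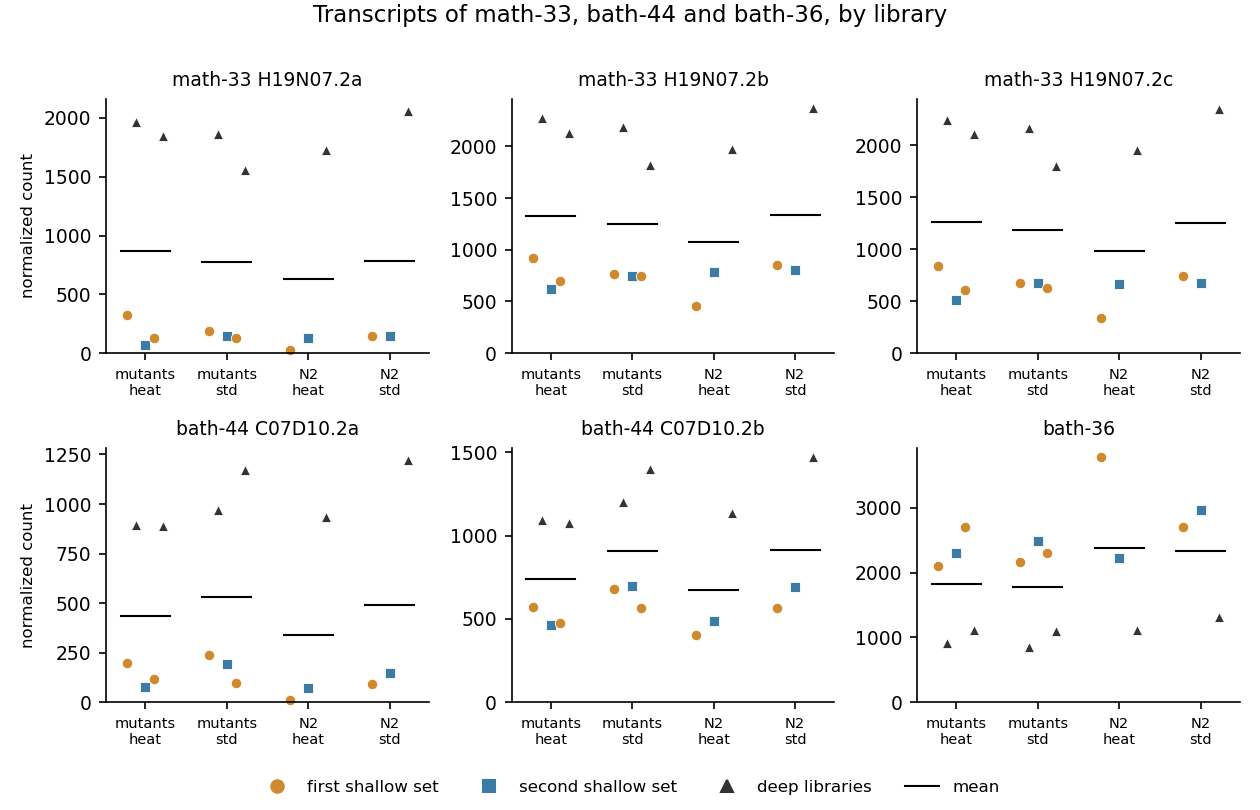
Normalized counts of the 3 transcripts of math-33, both transcripts of bath-44 and bath-36 in each library, for heat-shocked and standard ADAR mutants and N2; symbols mark the sets of libraries and lines the group means. For math-33 and bath-44 the deep libraries (triangles) lie above the shallow ones in every group, and for bath-36 below them.

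A gap between deep and shallow libraries was also found in some other members, though in a smaller share of them than of all transcripts. Under standard conditions, the log2 ratio of the mean of the 3 deep libraries to the mean of the 5 shallow ones was over 1 for 14 members and under -1 for 8, which is 22% of the members against 40.4% of all 24401 transcripts. After heat shock the same ratio was past these limits for 41% of the members, 16 over 1 and 25 under -1, against 49.4% of all transcripts. The highest ratios under standard conditions were 3.58 for H19N07.2a, 2.86 for C07D10.2a and 2.03 for the transcript F36H5.2a of math-27. The lowest under standard conditions was -1.90 for math-43, a pseudogene by the annotation, which had 43.8 to 74.9 counts in the deep and 189 to 268 in the shallow libraries. Strains and treatments are spread over both kinds of library, so fold changes are given below with the replicate pairs also as a block.

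The first question put to the data was how heat shock changed the members in ADAR mutants. Of the 100 members, 8 passed at an adjusted p under 0.05 from limma with Benjamini-Hochberg adjustment over all 24401 transcripts, 4 higher and 4 lower. This is 8% of the members, against 7.4% of all transcripts tested (5.01% higher and 2.39% lower), so the share is near that of transcripts in general. At an unadjusted p under 0.05 there were 19 members, against 20.5% of all transcripts. Higher were bath-34, math-20, math-21 and math-25, and lower were bath-9, bath-10, bath-41 and math-38. With the further limit of a log2 fold change over 2 in size, bath-34, math-25, bath-9, bath-10 and math-38 remained, against 3.68% of all transcripts. The median log2 fold change was -0.05 over the members and 0.07 over all transcripts, and it was -0.21 for bath and 0.07 for math members. In N2 only bath-46 (higher) and bath-41 (lower) of the 100 members passed, against 2.9% of all transcripts (2.36% higher and 0.537% lower). bath-46 also exceeded a log2 fold change of 2 in size, against 1.95% of all transcripts, and 19 members had an unadjusted p under 0.05, against 19.8%. The median in N2 was -0.06 over the members and 0.04 over all transcripts, with -0.21 for bath and 0.10 for math members. Quantile normalization moved the median of all transcripts to -0.07 in mutants and -0.06 in N2. It gave 2 higher and 6 lower members in mutants, against 4.77% of all transcripts (2.72% higher and 2.04% lower), and 1 higher and 0 lower in N2, against 0.631% (0.512% higher and 0.119% lower). DESeq2 gave 7 higher and 7 lower members in mutants, against 12.7% of all transcripts (8.44% higher and 4.28% lower), and 5 higher and 1 lower in N2, against 8.51% (5.99% higher and 2.52% lower). With the replicate pair as a block, 17 members passed in mutants (6 higher and 11 lower), against 23.0% of all transcripts (13.3% higher and 9.75% lower). In N2, 17 passed with the block (7 higher and 10 lower), against 19.5% (9.57% higher and 9.91% lower). With the deep libraries alone, which leave 1 library for each group of N2 that is assumed to vary like the mutants, 22 members passed in mutants, against 18.8% of all transcripts, and 4 in N2, against 8.19%.

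**Figure D3:**
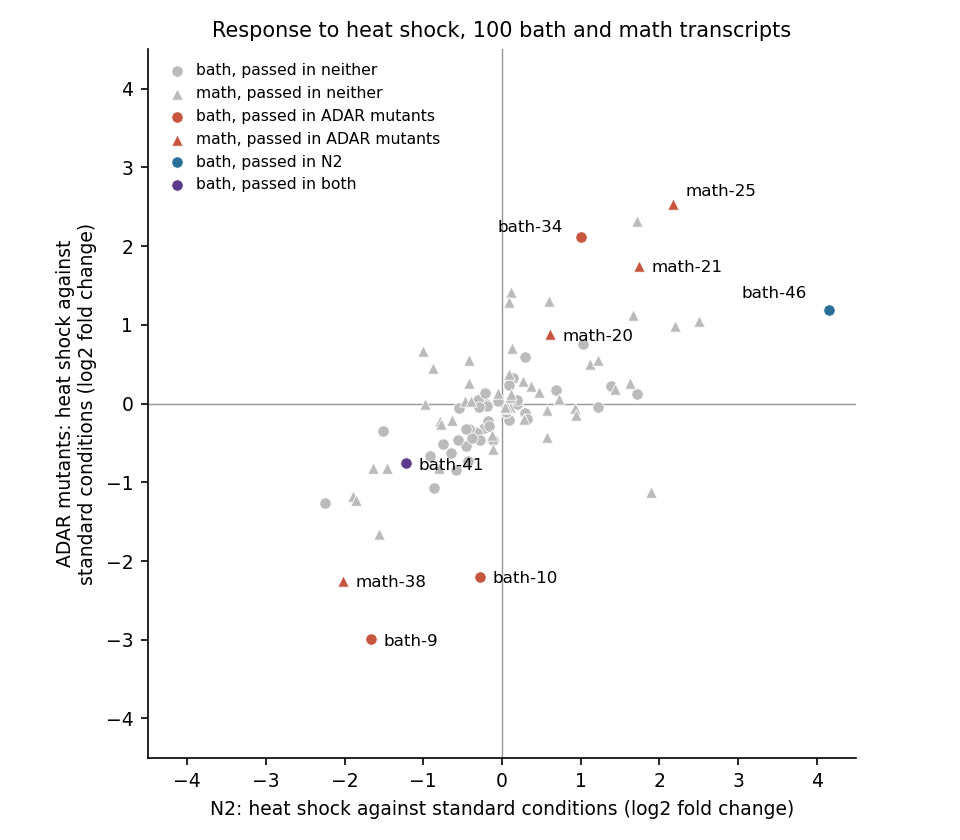
Log2 fold change after heat shock of each of the 100 members in N2 (horizontal) and in ADAR mutants (vertical), with circles for bath, triangles for math and colours for members with an adjusted p under 0.05 from limma. Most members lie near 0 on both axes; bath-46 lies farthest to the right (4.15 in N2) and bath-9 lowest (-2.996 in mutants).

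bath-9, a gene of chromosome II with a MATH and a BTB domain by name, had the lowest fold change of all members in the mutants. It had 8.85, 4.26 and 5.09 counts in heat-shocked BB4 and 8.12 and 5.03 in heat-shocked BB21, against 40.8, 54.2 and 80.0 in BB4 and 105 and 27.5 in BB21 under standard conditions. The mutant groups do not overlap, and both strains fell. The fall was -2.996 on the log2 scale (standard error 0.48, adjusted p = 0.00358 from limma), and it passed without any single library (adjusted p 0.000718 to 0.0128). In N2 bath-9 had 25.4, 43.6 and 6.62 counts after heat shock, against 82.2, 60.4 and 54.4 under standard conditions. These groups also do not overlap, but the log2 fold change of -1.66 did not pass in limma (standard error 0.62, adjusted p = 0.153) and stood just under the threshold with the replicate block (adjusted p = 0.0499, limma). The heat-shocked mutants lay lower than heat-shocked N2 in the mean (6.27 ± 2.07, SD, n = 5, and 25.2 ± 18.5, SD, n = 3), a log2 fold change of -1.56 that did not pass (adjusted p = 0.906, limma).

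math-38 fell in the mutants as well. It had 23.6, 25.6 and 10.18 counts in heat-shocked BB4 and 5.41 and 11.3 in heat-shocked BB21, against 40.8, 149 and 63.1 in BB4 and 60.4 and 56.3 in BB21 under standard conditions. The log2 fold change was -2.25 (standard error 0.58, adjusted p = 0.0309 from limma), and 7 of the 16 libraries ended the call when left out singly (adjusted p up to 0.0863). N2 had 95.1, 16.7 and 8.69 counts after heat shock, against 100.4, 87.1 and 121 under standard conditions. Replicate 1 of heat-shocked N2 stayed at the level of standard conditions and the other 2 lay far below. The fold change of -2.01 in N2 did not pass (adjusted p = 0.153) and passed with the replicate block (adjusted p = 0.0474, limma).

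bath-10, next to bath-9 by its sequence name, had 5.90, 2.13 and 0.424 counts in heat-shocked BB4 and 5.41 and 0 in heat-shocked BB21, against 9.41, 13.1 and 15.4 in BB4 and 20.1 and 6.87 in BB21 under standard conditions. These counts rest on 0 to 4 reads in each heat-shocked mutant library and on 6 to 39 reads under standard conditions. Its fold change was -2.20 (standard error 0.60, adjusted p = 0.0373 from limma), and 8 of the 16 libraries ended the call when left out singly. Libraries of N2 had 9.51, 19.2 and 2.48 counts after heat shock, against 9.13, 12.4 and 8.77 under standard conditions, which overlap (log2 fold change -0.28, adjusted p = 0.923, limma).

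bath-41 on chromosome III was the only member that passed in both strains, and it is among the most abundant. It had 617, 578 and 954 counts in heat-shocked BB4 and 781 and 874 in heat-shocked BB21, against 1210.3, 1173 and 1445 in BB4 and 1303 and 1208 in BB21 under standard conditions. N2 had 438, 766 and 924 counts after heat shock, against 1634, 1567 and 1546 under standard conditions. Each heat-shocked library lay below every library of its strain group under standard conditions, and the fall held in all 8 pairs of the same strain and replicate. The log2 fold change was -0.76 in mutants (standard error 0.21, adjusted p = 0.0413) and -1.22 in N2 (standard error 0.27, adjusted p = 0.0333), both from limma. The difference between the responses was 0.47 and did not pass (adjusted p = 1, limma). The change was smaller in the deep libraries than in the shallow sets. The log2 ratios of the pairs averaged -0.60 in the deep libraries, -1.22 in the first and -1.002 in the second shallow set. With the deep libraries alone the change did not pass in mutants (-0.53, adjusted p = 0.0650, limma). In N2 it was -0.74, from 1 library per group. Without single libraries it was lost in 12 of 16 cases in mutants and in 4 of 16 in N2, which were each of the N2 replicates under standard conditions and replicate 1 of heat-shocked N2.

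bath-34 on chromosome I had the highest fold change in mutants among members with a mean of at least 20. It had 66.4, 535 and 341 counts in heat-shocked BB4 and 233 and 398 in heat-shocked BB21, against 42.3, 32.8 and 89.9 in BB4 and 73.8 and 73.5 in BB21 under standard conditions. Replicate 1 of heat-shocked BB4 lies within the range of the standard libraries, and the other 4 heat-shocked libraries are above all of them. The log2 fold change was 2.12 (standard error 0.55, adjusted p = 0.0312 from limma), and 7 of the 16 libraries ended the call when left out singly. In N2 bath-34 had 120.5, 64.1 and 337 counts after heat shock, against 60.3, 56.9 and 93.8 under standard conditions, a log2 fold change of 1.00 that did not pass (adjusted p = 0.502, limma). The change differed with the set of libraries. The log2 ratios of the pairs were 0.17 and 0.64 in the second shallow set, 0.99 to 3.99 in the first and 1.83 to 2.42 in the deep libraries. With the deep libraries alone, the log2 fold change of bath-34 in N2 was 1.83, from 1 library per group. math-8, chosen after its values were seen, had no read in the second shallow set, while its log2 ratios were 1.90 to 3.72 in the first set and 2.44 to 3.26 in the deep libraries.

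bath-46 on chromosome II had the highest fold change of all members, and in N2. It had 79.3, 141 and 34.8 counts in heat-shocked N2, against 0, 5.33 and 10.5 in N2 under standard conditions. The 0 stands for no read among 7809971, which allows up to 3 reads, or a normalized count of 5.48. The log2 fold change was 4.15 on the log2(count + 1) scale (standard error 0.75, adjusted p = 0.0144 from limma). In mutants bath-46 had 53.1, 40.5 and 33.5 counts in heat-shocked BB4 and 37.9 and 45.7 in heat-shocked BB21, against 10.97, 31.2 and 16.6 in BB4 and 13.4 and 23.0 in BB21 under standard conditions. These groups do not overlap either, yet the fold change of 1.18 did not pass (standard error 0.58, adjusted p = 0.268, limma). The count was higher after heat shock in all 8 pairs. The size of the change in N2 depended on the libraries. It was 4.49 in the pair of the second shallow set and 1.64 in the deep pair, each from 1 library per group. The call was lost without replicate 1 of N2 under standard conditions or after heat shock (adjusted p up to 0.0635, limma).

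The remaining members that passed in the mutants were 3 math genes. math-20 had 385, 294 and 507 counts in heat-shocked BB4 and 351 and 580.0 in heat-shocked BB21, against 168, 259 and 241 in BB4 and 173 and 302 in BB21 under standard conditions. The groups overlap by 1 library, the fold change of 0.88 passed narrowly (standard error 0.26, adjusted p = 0.0496, limma), and leaving out any of 13 of the 16 libraries ended the call. In N2 its fold change was 0.61 (adjusted p = 0.335, limma). math-21 had 14.8, 12.8 and 21.6 counts in heat-shocked BB4 and 9.48 and 28.9 in heat-shocked BB21, against 6.27, 4.92 and 5.13 in BB4 and 2.68 and 2.75 in BB21 under standard conditions. In N2 it had 22.2, 10.3 and 16.15 counts after heat shock, against 5.48, 3.55 and 3.07 under standard conditions. No group overlapped its control, and the fold changes were nearly equal, at 1.75 in mutants (standard error 0.38, adjusted p = 0.0137) and 1.74 in N2 (standard error 0.49, adjusted p = 0.0666), the second passing with the replicate block (adjusted p = 0.0345, limma). Under standard conditions the shallow values of math-21 rest on few reads, since 3 reads stand for 4.03 to 5.48 counts in those libraries. The call in mutants held without any single library.

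math-25 had 7.38, 34.1 and 19.1 counts in heat-shocked BB4 and 31.1 and 10.5 in heat-shocked BB21, against 0, 1.64 and 2.76 in BB4 and 6.71 and 3.44 in BB21 under standard conditions. Counts in N2 were 3.17, 10.3 and 9.11 after heat shock, against 0, 1.78 and 0.877 under standard conditions, and the standard libraries rest on 0, 1 and 2 reads. The fold change was 2.53 in mutants (standard error 0.58, adjusted p = 0.0185) and 2.17 in N2 (standard error 0.75, adjusted p = 0.126), where it passed with the replicate block (adjusted p = 0.0217, limma). Leaving out replicate 2 of heat-shocked BB4 ended the call in mutants (adjusted p = 0.0548).

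**Figure D4:**
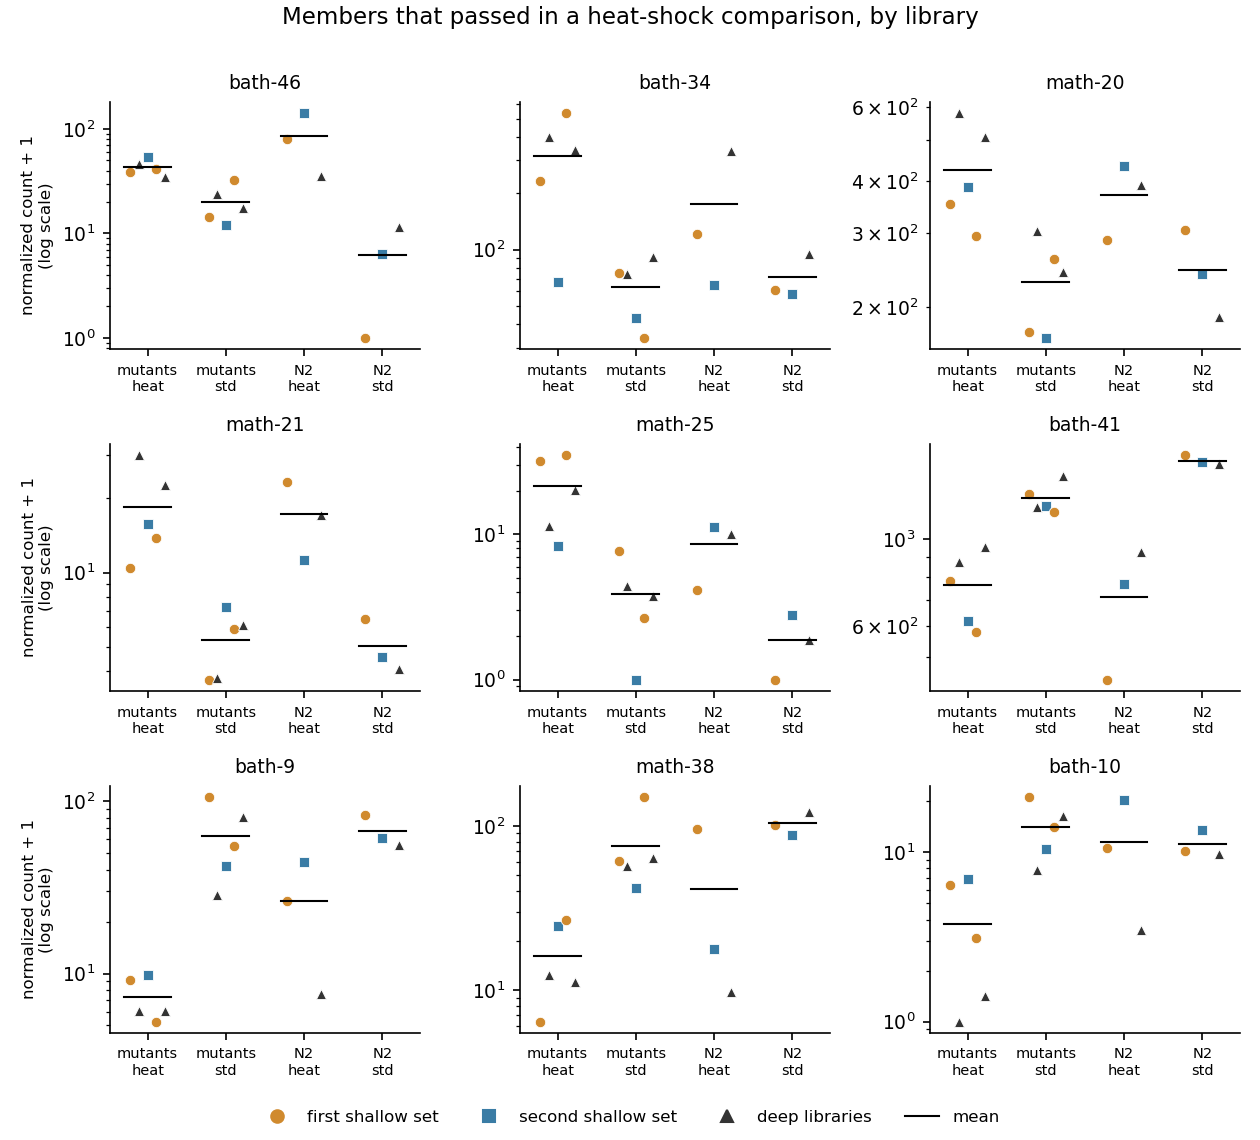
Normalized count plus 1 (log scale) of the 9 members that passed in a heat-shock comparison, in each library of heat-shocked (heat) and standard (std) ADAR mutants and N2; symbols mark the sets of libraries and lines the group means. bath-9, bath-41, math-21, math-25 and bath-46 do not overlap between heat shock and standard conditions in either strain group.

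Other members with large fold changes did not pass. Among members with a mean of at least 20, the highest in mutants after bath-34 were math-50 (1.30, adjusted p = 0.0629), bath-46, math-20 and the transcript B0047.1a of bath-20 (0.76), and the lowest after bath-9 and math-38 were bath-19 (-1.07, adjusted p = 0.0600), bath-6 (-0.85) and math-18 (-0.82). With the replicate block, math-50 (adjusted p = 0.0119) and bath-19 (adjusted p = 0.0110) passed in limma. In N2, again at a mean of at least 20, the highest after bath-46 were bath-47 (1.71), math-24 (1.22), math-48 (1.12) and B0047.1a (1.03), and the lowest besides math-38, bath-9 and bath-41 were math-18 (-1.64) and C07D10.2a (-1.51). Of these, math-24 (adjusted p = 0.0419), math-48 (0.0496), math-18 (0.0335) and C07D10.2a (0.0404) passed with the replicate block in limma. The values of bath-47 varied within groups, with 76.7, 6.39 and 14.4 counts in heat-shocked BB4 and 22.2, 112 and 8.28 in heat-shocked N2. With the block, 8 members passed in the same direction in mutants and in N2, which were math-21 and math-25 (higher) and bath-9, bath-15, bath-27, bath-30, bath-41 and math-38 (lower). Of all transcripts, 23.0% passed with the block in mutants and 19.5% in N2. The share of all transcripts that passed in both was not computed.

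The direction was the same in all 8 pairs of a strain and replicate for 20.0% of the members, against 24.3% of all transcripts. Among the bath members 11 of 48 were lower in all 8 pairs (22.9%) and 3 were higher, while among the math members 2 of 52 were lower and 4 higher. Of all transcripts, 12.4% were lower and 11.9% higher in all 8 pairs. Those lower in all pairs include abundant bath genes with modest changes, named here after their values were seen. bath-30 had 459, 458 and 199 counts in heat-shocked BB4 and 485 and 208 in heat-shocked BB21, against 652, 665 and 306 in BB4 and 559.6 and 339 in BB21 under standard conditions. The groups overlap because the deep libraries lie lower in each, and within every pair the heat-shocked value is the smaller. Its fold change of -0.51 in mutants and -0.75 in N2 did not pass without the block (adjusted p = 0.519 and 0.435) and did with it (adjusted p = 0.0258 and 0.0230, limma).

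None of the 19 members annotated as pseudogenes passed in either heat-shock comparison in limma (4 at an unadjusted p under 0.05 in mutants and 3 in N2). Over all transcripts 7.4% passed in mutants and 2.9% in N2, and 20.5% and 19.8% had an unadjusted p under 0.05, so that 0 calls among 19 are near the general share. Their fold changes ran from -1.26 to 1.30 in mutants and from -2.25 to 2.19 in N2, with medians of -0.05 and 0.06. With the replicate block math-50, a pseudogene by the annotation, passed in mutants as given above, where 23.0% of all transcripts passed. In N2, 3 of the 19 passed with the block, against 19.5% of all transcripts. These 3 were math-2 (2.19, adjusted p = 0.0168) and math-30 (1.62, adjusted p = 0.0405) higher and bath-8 (-2.25, adjusted p = 0.0468) lower, all from limma and at means under 20. The transcripts of math-27, which is annotated as a pseudogene, were the most abundant of them, with F36H5.2b at a mean of 1115 and fold changes of -0.04 in mutants and 0.07 in N2. math-32 stood out by 1 library, with 786 counts in replicate 1 of heat-shocked N2 and 121 and 80.3 in the other 2, against 117, 144 and 66.2 under standard conditions.

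Because the genes lie in arrays, neighbours were set side by side by the clone in their sequence names, which places them close together on chromosome II. On clone Y49F6C, bath-9 and bath-10 fell in mutants, and the pseudogene bath-8 had fold changes of -1.26 in mutants and -2.25 in N2 that did not pass without the block, while bath-23 was at -0.04 and 1.22. On clone T07H3 neighbours moved apart. bath-46 was at 1.18 in mutants and 4.15 in N2, math-38 at -2.25 and -2.01, bath-47 at 0.12 and 1.71, and bath-26 at -0.20 and 0.09. On clone C40D2 all 3 genes had fold changes above 0 in both strains, at 1.41 and 0.12 for math-19, 0.88 and 0.61 for math-20 and 1.75 and 1.74 for math-21. On clone C46F9, math-25 was at 2.53 and 2.17, math-24 at 0.55 and 1.22, the abundant math-22 at 0.28 and 0.27 and math-23 at -0.15 and 0.94. On clone F14D2 the 6 transcripts of bath-27 to bath-30 were between -0.66 and 0.00 in mutants and between -0.91 and -0.19 in N2. On clone F59H6 all 6 transcripts were below 0 in mutants (-1.07 to -0.05) and 1 was above 0 in N2, and on clone ZK250 all 5 were above 0 in mutants (0.14 to 1.30) and 4 in N2. The 7 genes of clone C16C4 ran from -1.12 to 2.31 in mutants and from -1.47 to 2.51 in N2. Other large clones held transcripts on both sides of 0, in unlike shares. On F52C6, 1 of 7 transcripts was above 0 in mutants and 2 in N2, and on F36H5 3 of 6 and 4. On B0047, 3 of 5 were above 0 in mutants and 4 in N2, and on C08F1 3 of 5 and 3. Over all 100 members, 43 were above 0 in mutants and 49 in N2. Near-identical copies can share reads when multiple alignments are counted, so neighbours in an array are not independent measurements, although no 2 members had the same reads in all libraries.

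**Figure D5:**
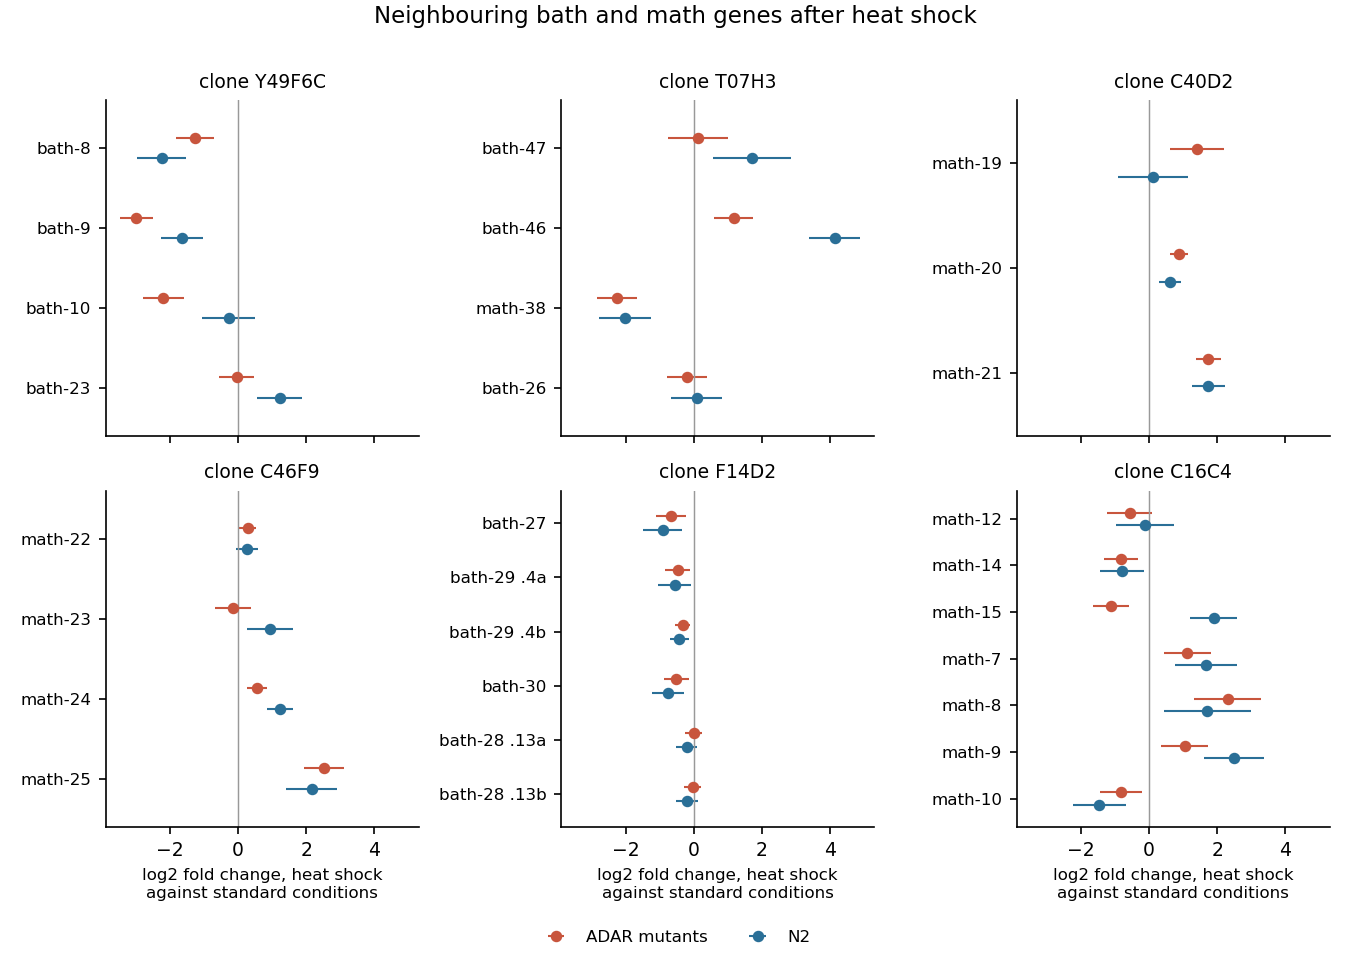
Log2 fold change after heat shock, with its standard error, of bath and math transcripts on 6 clones, ADAR mutants above N2 for each. Fold changes on F14D2 and C40D2 lie on the same side of 0 or near it, whereas bath-46 and math-38 of T07H3 lie on opposite sides.

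The second question was whether loss of ADARs changed the members. Under standard conditions no member passed between ADAR mutants and N2 (0 of 100 in limma, 0 with edgeR and 0 with DESeq2, 1 at an unadjusted p under 0.05), against 0.0041% of all transcripts (1 of 24401) and 3.88% at an unadjusted p under 0.05. The member with an unadjusted p under 0.05 was bath-46, at 10.97, 31.2 and 16.6 counts in BB4 and 13.4 and 23.0 in BB21, against 0, 5.33 and 10.5 in N2. These groups do not overlap (log2 fold change 2.17, standard error 0.67, adjusted p = 0.757, limma). Among members with a mean of at least 20, the next highest were bath-47 (0.96) and bath-13 (0.65), and the lowest were math-14 (-0.65), math-38 (-0.60) and bath-2 (-0.48). The median over the members was -0.04, against -0.01 over all transcripts. None of the 6 transcripts of adr-1 and adr-2 passed in limma here either. Their median log2 fold change was -1.78, and 5 had an unadjusted p under 0.05. In simulated data this comparison recovered 0% of log2 changes of 1, 31.3% of those of 2 and 75.8% of those of 4. An absence of calls therefore does not show that levels were equal.

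After heat shock no member passed between ADAR mutants and N2 (0 in limma, 0 with edgeR and 0 with DESeq2, 6 at an unadjusted p under 0.05), against 0.0% of all transcripts and 4.64% at an unadjusted p under 0.05. Among members with a mean of at least 20, the highest fold changes were 1.59 for C07D10.2a of bath-44, 1.16 for H19N07.2a of math-33 and 0.90 for bath-34, and the lowest were -1.56 for bath-9, -0.85 for math-32 and -0.84 for math-38. For C07D10.2a and H19N07.2a the standard errors were 1.34 and 1.501, and their values are split between deep and shallow libraries. The 6 transcripts of adr-1 and adr-2, with a median log2 fold change of -1.44, did not pass in limma after heat shock either.

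The difference of the heat-shock responses, mutants minus N2, was also not significant for any member (0 in limma, 0 with edgeR, 0 with DESeq2 and 0 with the replicate block, 2 at an unadjusted p under 0.05), against 0.0% of all transcripts and 1.4% at an unadjusted p under 0.05. The members with an unadjusted p under 0.05 were math-15 (-3.02) and bath-46 (-2.97), both with an adjusted p of 1 in limma. math-15 had 4.43, 2.13 and 7.21 counts in heat-shocked BB4 and 0 and 4.61 in heat-shocked BB21, against 3.14, 8.21 and 7.89 in BB4 and 9.39 and 9.96 in BB21 under standard conditions. N2 had 19.02, 11.5 and 9.11 counts after heat shock, against 1.83, 1.78 and 5.26 under standard conditions. It was thus higher after heat shock in every N2 pair and lower in 4 of 5 mutant pairs, at counts that leave wide errors. A response that passed in 1 strain group and not in the other, as for bath-34 or bath-46, was therefore not shown to differ between them.

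The partners of BTB proteins were examined in a list of cullins, the RING protein and the enzymes that attach or remove NEDD8, the small protein that activates cullins. Of its 29 transcripts of 22 genes, 1 passed in mutants and 1 in N2, against 7.4% and 2.9% of all transcripts, and it was cul-6 in both. cul-6, a cullin known for its induction by intracellular infection, had 111, 194 and 202 counts in heat-shocked BB4 and 226 and 210.1 in heat-shocked BB21, against 40.8, 59.1 and 80.8 in BB4 and 41.6 and 96.2 in BB21 under standard conditions. N2 had 187, 244 and 245 counts after heat shock, against 69.4, 60.4 and 78.02 under standard conditions. The log2 fold change was 1.59 in mutants (standard error 0.30, adjusted p = 0.00681) and 1.68 in N2 (standard error 0.39, adjusted p = 0.0370), both from limma. The median of the list was -0.30 in mutants and -0.48 in N2, against 0.07 and 0.04 over all transcripts, and with the replicate block 1 of its 29 transcripts was lower in mutants, against 9.75% of all transcripts, and 11 were lower in N2, against 9.91%. cul-3 itself was at -0.12 in mutants and -0.26 in N2 (adjusted p = 0.980 and 0.955, limma), with deep libraries at 2620.2 to 3648 counts and shallow ones at 241 to 842.

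Among 29 other transcripts with a MATH or BTB domain (27 of the 32 genes listed), 5 passed in mutants (1 higher and 4 lower), against 5.01% higher and 2.39% lower of all transcripts. In N2 0 passed by limma, against 2.9%, and 9 had an unadjusted p under 0.05, against 19.8%. The median of the list was -0.32 in mutants and -0.13 in N2. trf-1, a TRAF homolog with a MATH domain, rose in mutants (2.14, adjusted p = 0.0207), and 4 btb genes fell, btb-6 (-3.99, adjusted p = 0.0147), btb-10 (-3.20, adjusted p = 0.0105), btb-11 (-2.96, adjusted p = 0.0208) and btb-7 (-2.76, adjusted p = 0.0316). In N2 the same genes were at 2.52, -2.47, -2.25, -3.22 and -1.33, of which only btb-7 did not pass with the replicate block. btb-6 had 28.04, 4.26 and 3.82 counts in heat-shocked BB4 and 31.1 and 2.10 in heat-shocked BB21, against 177, 164 and 128 in BB4 and 236 and 81.8 in BB21 under standard conditions. mel-26, whose protein brings the katanin subunit MEI-1 to the CUL-3 ligase after meiosis, was at -0.59 in mutants and -0.91 in N2, which did not pass (adjusted p = 0.282 and 0.198) and did with the replicate block (adjusted p = 0.0210 and 0.0170, limma). Of the 22 transcripts of 5 known targets of these proteins, 1 passed in mutants, the transcript T01G9.5a of mei-1 (-0.86, adjusted p = 0.0399, limma), against 7.4% of all transcripts, and none in N2 (0 in limma, 3 at an unadjusted p under 0.05), against 2.9% and 19.8%. mei-1 and mel-26 act in oocytes and embryos, whose markers were lower after heat shock as given above, and the part of this in their values was not tested.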

How the data were processed

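Poly(A) RNA of L4 worms was sequenced in 16 libraries as single reads of 50 nt. The authors trimmed and collapsed the reads and used Bowtie, with more than one alignment per read permitted, to place them on transcripts of the WS220 release, where they were counted. The deposited signal values are these read counts divided by a DESeq2 size factor for each library, called normalized counts here. Dividing by the value of 1 read in a library gave whole reads for 100.0% of the values (tolerance 0.001), and these reads were used for count tests. Versions of the aligner and DESeq2 are not given in the sources used here. A deposited table of the authors' own fold changes and p-values was not used.

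Transcripts with a mean of at least 1 (24401) were tested with limma 3.58.1 in R 4.3.3 (two-sided, trend, log2 of the normalized count + 1, 4 groups, BB4 and BB21 together as in the study's methods) with Benjamini-Hochberg adjustment. Calls needed an adjusted p under 0.05, and a second rule a log2 fold change over 2 in size. Fold changes of low counts are understated by the added 1. Recovered reads were also tested with edgeR 4.0.16 (quasi-likelihood) and DESeq2 1.42.0. The code was tested on simulated data. Same-numbered libraries of a strain deviated together (correlation of deviations from group means 0.385 to 0.822 in 8 pairs, 5 of 8 highest with their own number), so the number was also fitted as a block. In BB4 replicate 3 the title endings of the heat-shocked and the standard library differ, so this pair rests on the replicate number alone. The title endings of the other pairs match.

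Members named are those called in any comparison, with a mean of at least 20 also the 5 at either end of the fold changes in a heat-shock comparison and the 3 at either end in a strain comparison, the 6 highest levels per kb, bath-42, math-33, and from the lists those called, cul-3 and mel-26. The members and lists were chosen with earlier results of these data known. Chromosome, biotype and length come from Ensembl's WBcel235 annotation, a later build than WS220, so no coordinates are given. Counting error sets the floor at low counts: a library with 0 reads allows up to 3, a bound that covers counting error only.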

Additional observations from a re-analysis of the deposited data

Results flagged for a closer look

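In ADAR mutants under standard conditions, math-38 had 149 normalized counts in BB4 replicate 2, far above the 40.8 to 63.1 counts of the other 4 libraries. The gap to the nearest library was 0.794 of the group's range, over the limit of 0.71 that Dixon's test sets for 5 samples. Chance alone passes this limit in about 1 in 20 groups. Without this library the log2 fold change of math-38 after heat shock in mutants was -1.96 and did not pass (adjusted p = 0.0863 from limma). This was the only flag recorded, but it is not the only wide group. In heat-shocked mutants, BB4 replicate 1 of bath-47 also lay far above the other BB4 replicates, by the counts given above.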

How the results depend on the processing

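The 10 calls of named members were recomputed 287 times in all under the alternatives, of which 195 kept the call, 92 kept the direction only and 0 reversed. The number of members called after heat shock in ADAR mutants (8) and in N2 (2) depended on the setting. In mutants it was 4 with a mean of at least 20, 14 with DESeq2, 17 with the replicate block, 20 with the library set as a block, 2 with the shallow libraries alone, 0 without the first shallow set and 0 with BB4 alone, and 22 with the deep libraries alone, an alternative chosen after seeing the data. In N2 it was 1 with quantile normalization, 1 with edgeR, 6 with DESeq2, 17 with the replicate block and 20 with the library set as a block. It was 0 without the first shallow set and 0 with BB4 alone. The settings without the first shallow set and with BB4 alone have fewer samples, as do those with the deep or the shallow libraries alone. The cause of these changes was not tested. Leaving out each library in turn gave 3 to 11 members in mutants and 0 to 3 in N2, and 0 to 1 between mutants and N2 after heat shock. In mutants it was 3 without BB21 replicate 1 or BB4 replicate 2 under standard conditions or BB21 replicate 2 or BB4 replicate 2 after heat shock, 4 without BB21 replicate 1 or BB4 replicate 3 after heat shock or BB4 replicate 3 under standard conditions, and 5 without N2 or BB4 replicate 1 under standard conditions. In N2 it was 0 without replicate 1 after heat shock or under standard conditions and 1 without replicate 2 or 3 under standard conditions; between mutants and N2 after heat shock it was 1 without replicate 3 of heat-shocked N2. The replicate block changed no call in the difference of the responses (0 members). In the comparison under standard conditions and in the difference of responses every alternative gave 0 members. Another pseudocount (4), no filter on low values and 1 transcript per gene left both heat-shock counts within 1.5 times. Low counts limit the 33 members with a mean under 20.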
